A study of Mus musculus with 8 samples.

Results

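The GABA-A receptor subunit genes described here are Gabra2, Gabra3, Gabra4, Gabra5, Gabrb1, Gabrb2 and Gabrd, 7 of the 46078 rows of a table of read counts, taken by gene name. The counts come from poly(A) RNA of the hippocampus of 9-week-old mice with the strain label C57BL/6J. There were 4 wild-type (WT) libraries and 4 libraries of mice that were Cre+/- for the transgene Tg(Camk2a-cre)T29-1Stl, called T29-1 Cre here, whose Camk2a promoter expresses Cre recombinase mainly in excitatory forebrain neurons. The labels name no floxed allele and no treatment in either group, and they do not say whether a library came from 1 animal or from pooled tissue. The comparison asks whether the transgene alone goes with a change in the transcripts of the hippocampus.

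GABA-A receptors are chloride channels opened by GABA, the main inhibitory transmitter of the forebrain, and each is assembled from subunits of several classes around a central pore. GABA binds where a beta and an alpha subunit meet, and the alpha subunit largely sets where the receptor sits and whether it responds to classical benzodiazepines. In the hippocampus, receptors with the subunits encoded by Gabra5 (in pyramidal cells) or by Gabra4 and Gabrd (in dentate granule cells) lie largely outside synapses and carry tonic inhibition, while those with the Gabra2 subunit are found at synapses on the cell body and axon initial segment.

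The coding sequences show how alike the 7 transcripts are, which bears on whether a read can be assigned to one of them. The most alike 60-base stretch that lies within 1 exon of each gene is printed 5′ to 3′ on the coding strand, with the 26 bases shared by all 7 genes in capitals.
Gabra2: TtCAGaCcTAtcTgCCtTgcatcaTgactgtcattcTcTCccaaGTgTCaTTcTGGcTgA
Gabra3: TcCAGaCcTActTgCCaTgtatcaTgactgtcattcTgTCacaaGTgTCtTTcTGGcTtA
Gabra4: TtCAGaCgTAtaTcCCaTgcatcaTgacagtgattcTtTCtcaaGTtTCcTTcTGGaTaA
Gabra5: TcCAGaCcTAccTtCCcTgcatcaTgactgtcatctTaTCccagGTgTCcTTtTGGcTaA
Gabrb1: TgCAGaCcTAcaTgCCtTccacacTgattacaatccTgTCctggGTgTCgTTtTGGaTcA
Gabrb2: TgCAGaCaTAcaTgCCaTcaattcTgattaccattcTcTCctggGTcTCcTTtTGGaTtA
Gabrd: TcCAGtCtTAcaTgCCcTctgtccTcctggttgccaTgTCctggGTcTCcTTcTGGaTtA
In GRCm38, with the exons of GENCODE M21, these stretches lie at chr5:71006140-71006199 (exon 8, minus strand) for Gabra2, chrX:72451537-72451596 (exon 8, minus strand) for Gabra3, chr5:71633579-71633638 (exon 7, minus strand) for Gabra4, chr7:57418253-57418312 (exon 8, minus strand) for Gabra5, chr5:72108744-72108803 (exon 7, plus strand) for Gabrb1, chr11:42593857-42593916 (exon 7, plus strand) for Gabrb2 and chr4:155386436-155386495 (exon 7, minus strand) for Gabrd. All are protein-coding exon sequence. Over the whole coding sequence, the 4 alpha subunit genes were 59.1% to 69.1% identical to each other in 6 pairs, Gabrb1 and Gabrb2 were 70.7% identical, and alpha genes were 47.1% to 51.8% identical to Gabrb1, Gabrb2 or Gabrd in 12 pairs. The longest exact run shared by annotated transcripts of any 2 of the 7 genes was 24 bases (Gabra3 with Gabra5), shorter than the 150-base reads.

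Gabra2 (ENSMUSG00000000560.9), Gabra4 (ENSMUSG00000029211.11) and Gabrb1 (ENSMUSG00000029212.11) lie side by side on chromosome 5, from 70957597 to 71095849 on the minus strand, from 71569749 to 71658308 on the minus strand and from 71658113 to 72149037 on the plus strand. Gabra5 (ENSMUSG00000055078.7) is on chromosome 7 from 57407672 to 57510059 on the minus strand, where tested genes of the plus strand overlap it. Gabrb2 (ENSMUSG00000007653.12) is on chromosome 11 from 42419757 to 42629028 on the plus strand. Gabra3 (ENSMUSG00000031343.13) is on chromosome X from 72432681 to 72656848, and Gabrd (ENSMUSG00000029054.8) on chromosome 4 from 155384980 to 155398112, both on the minus strand. The starts of Gabra4 and Gabrb1 overlap head to head by 196 bases, so that reads of that stretch are uncertain where counting ignored strand.

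Across the series the libraries held 23358289 to 30882631 counts. WT replicate 4 was unlike the rest: its score on the leading principal component of log2 CPM (read counts scaled by library size) was 33.4, against -8.74 to 0.69 for the others. All 10 dentate granule cell markers, all 8 CA1 markers and all 9 CA2 and CA3 markers examined were detected and tested, as were 12 interneuron markers, and 0 of them were at 0 in all libraries. As the tissue is whole hippocampus, fewer cells of a type and less RNA per cell cannot be told apart in any value given here.

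All 7 subunit genes passed the filter on low counts, and none changed between the genotypes past the threshold of a Benjamini-Hochberg adjusted p under 0.05 (edgeR quasi-likelihood test over 15996 genes, adjusted p = 0.998 for each). In the same test 0.00625% of all genes were called, which is 1 gene and not a subunit gene. At an unadjusted p under 0.05 there was 1 of the 7, Gabra3, higher in T29-1 Cre, against 2.43% of all genes in either direction and 1.27% with a higher value in T29-1 Cre, and DESeq2 and limma-voom each also called 0 of the 7 with 1 at that level. The genotypes' libraries overlapped for all 7, where they did not overlap for 1.81% of all genes. The value was higher in T29-1 Cre for 6 of the 7 and lower for 1, with a median log2 fold change of 0.03 against -0.00075 over all genes tested, of which 49.7% were higher. This tally turned without WT replicate 1, to 3 higher and 4 lower with a median of -0.018, and was 4 and 3 with a median of 0.0014 when GC content and length were adjusted for.

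**Figure D1:**
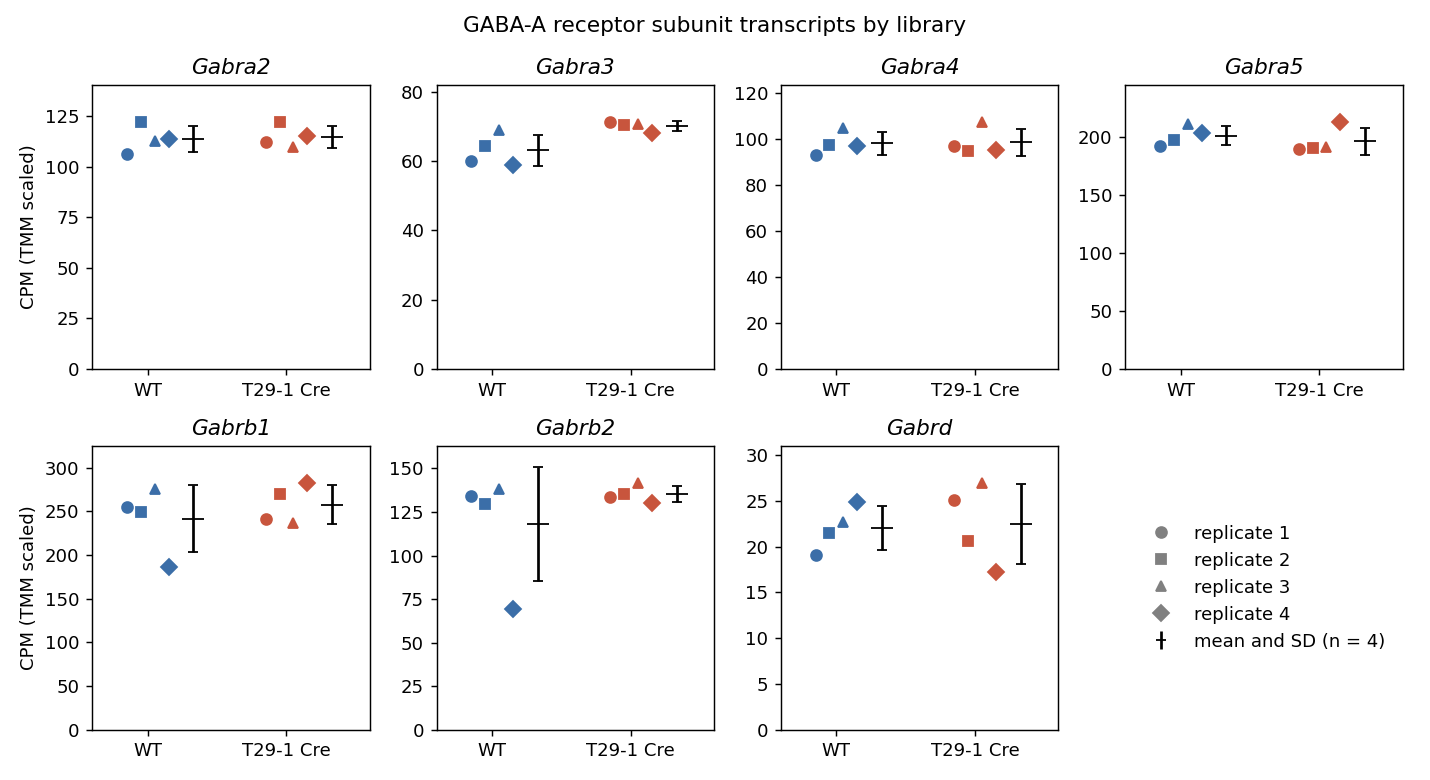
CPM (linear axis from 0) of the 7 subunit genes in each WT and T29-1 Cre library, 1 symbol per replicate number, with the mean and SD of each group in black. The WT and T29-1 Cre points overlap for every gene, and WT replicate 4 lies far below the other libraries for Gabrb2, at 69.1 CPM.

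Among the alpha subunits, Gabra5, whose product is concentrated in the hippocampus, gave the most reads. It was at 192, 198, 211 and 203 CPM in WT replicates 1 to 4 and at 190, 191, 192 and 213 CPM in T29-1 Cre replicates 1 to 4. T29-1 Cre replicate 4 was the highest of its group, and the other T29-1 Cre libraries lay below every WT library. The WT mean was 201 ± 8.19 CPM and the T29-1 Cre mean 196 ± 11.3 CPM (SD over 4 libraries each), for a difference in log2 of -0.03 (SE 0.0521). The 95% interval of the fold change was 0.903 to 1.05. These values rest on 4433 to 6476 reads per library.

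Gabra2 encodes the alpha subunit of perisomatic synapses and is the subunit most linked to the anxiety-reducing action of benzodiazepines. Its WT libraries were at 106, 122, 113 and 114 CPM and its T29-1 Cre libraries at 112, 122, 110 and 115 CPM, so the groups span nearly the same range. The log2 fold change was 0.01 (SE 0.0539), with a 95% interval of the fold change of 0.932 to 1.09.

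Gabra4 encodes the alpha subunit that pairs with the Gabrd product and confers insensitivity to classical benzodiazepines. It was at 93.0, 97.5, 105 and 97.0 CPM in WT and at 96.9, 94.9, 107 and 95.2 CPM in T29-1 Cre. Replicate 3 was the highest library in both groups. The log2 fold change was 0.01 (SE 0.0555), with a 95% interval of the fold change of 0.925 to 1.09.

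Gabra3 had the smallest p of the 7 genes. Its product is abundant in the neocortex and in monoaminergic nuclei, and less so in the hippocampus. Its WT libraries were at 60.05, 64.3, 69.0 and 59.0 CPM and its T29-1 Cre libraries at 71.2, 70.2, 70.6 and 67.9 CPM. The groups overlapped only through WT replicate 3, which exceeded T29-1 Cre replicate 4. The WT mean was 63.1 ± 4.55 CPM and the T29-1 Cre mean 69.998 ± 1.44 CPM (SD over 4 libraries each), and the log2 fold change was 0.15 (SE 0.0554), with a 95% interval of 0.03 to 0.27. The unadjusted edgeR p was 0.0175 and the adjusted p 0.998, which does not pass, and the gene ranked 94 of 15996 by p. The exact two-sided permutation test over 70 assignments gave p = 0.0571, where the smallest possible value is 0.0286. Without WT replicate 1 the log2 fold change was 0.13, with an unadjusted p of 0.0580 in the edgeR fit, which is above 0.05. With any other library left out, the unadjusted edgeR p ran from 0.0030 (without WT replicate 3) to 0.0450 (without T29-1 Cre replicate 1). The adjusted p passed in none of these fits. Beside this, 8 of 9 markers of neocortex and subiculum had a higher value in T29-1 Cre, against 49.7% of all tested genes. The summed level of these markers was 342 to 363 CPM in WT and 301 to 437 CPM in T29-1 Cre. Their part in the Gabra3 value was not tested.

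The beta subunits Gabrb1 and Gabrb2, which form part of the GABA site, had the widest WT ranges, through WT replicate 4. Gabrb2 was at 134, 130, 138 and 69.1 CPM in WT and at 134, 135, 142 and 130 CPM in T29-1 Cre. WT replicate 4 held 1654 Gabrb2 reads and was the lowest of all 8 libraries. The other 3 WT libraries lay within the range of T29-1 Cre or just under its lower end. The WT mean was 118 ± 32.7 CPM and the T29-1 Cre mean 135 ± 4.80 CPM (SD over 4 libraries each), for a log2 fold change of 0.20 (SE 0.155) with an unadjusted edgeR p of 0.222. Without WT replicate 4 the log2 fold change was 0.01 (SE 0.0412), with a 95% interval of the fold change of 0.949 to 1.07.

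Gabrb1 was at 255, 249, 276 and 187 CPM in WT and at 242, 270, 236 and 283 CPM in T29-1 Cre. WT replicate 4 was again the lowest library, while the other WT libraries lay inside the T29-1 Cre range. The log2 fold change was 0.09 (SE 0.0980), and without WT replicate 4 it was -0.01 (SE 0.0594). The ratio of Gabrb1 to Gabrb2 reads was 1.90, 1.92, 1.99 and 2.70 in WT and 1.81, 1.99, 1.67 and 2.17 in T29-1 Cre, so WT replicate 4 had the highest ratio as well.

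Gabrd encodes the delta subunit of neurosteroid-sensitive receptors outside synapses, and it had the fewest reads of the 7 genes, 460 to 747 per library. It was at 19.1, 21.5, 22.7 and 24.9 CPM in WT and at 25.0, 20.6, 27.0 and 17.2 CPM in T29-1 Cre. The T29-1 Cre libraries enclosed the whole WT range, with replicate 3 the highest and replicate 4 the lowest of all 8. The log2 fold change was 0.03 (SE 0.121), with a 95% interval of the fold change of 0.853 to 1.22, and the exact permutation test gave p = 0.971.

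**Figure D2:**
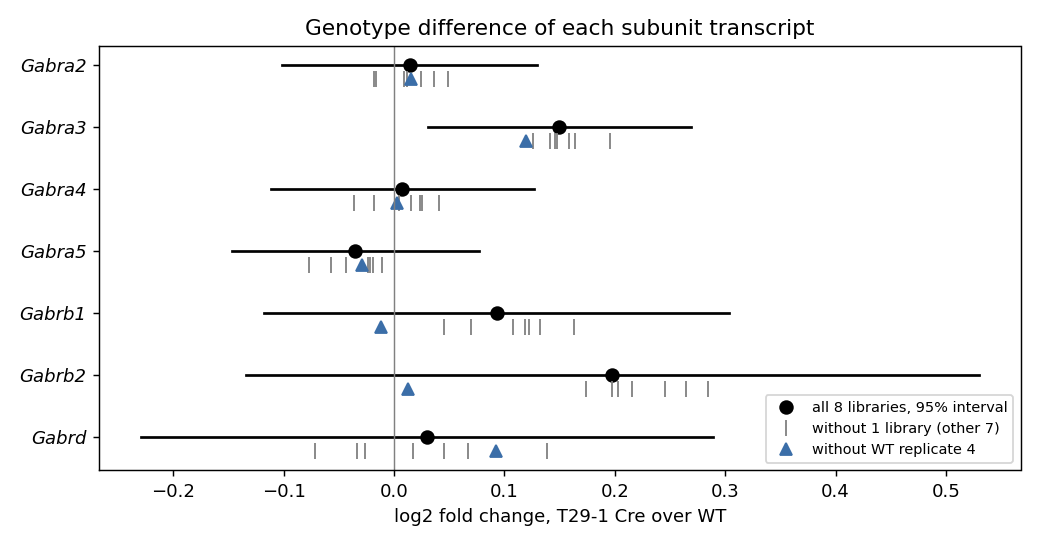
Log2 fold change of T29-1 Cre over WT for each subunit gene, with the value and 95% interval from all 8 libraries in black, the values with 1 other library left out as grey ticks and the value without WT replicate 4 as a blue triangle. The interval of Gabra3 (0.03 to 0.27) does not include 0, and Gabrb1 and Gabrb2 move to -0.01 and 0.01 without WT replicate 4.

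In the authors' deposited table the log2 fold changes were 0.01 for Gabra2, 0.15 for Gabra3, 0.01 for Gabra4, -0.03 for Gabra5, 0.09 for Gabrb1, 0.20 for Gabrb2 and 0.03 for Gabrd. The unadjusted p in the authors' deposited table was 0.0199 for Gabra3 and 0.340 for Gabrb2.

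Levels between genes were compared as RPKM, the CPM divided by the length of annotated exon in kilobases. In WT the order was Gabra5 at 67.6 ± 2.75, Gabrb2 at 18.5 ± 5.14, Gabrb1 at 17.5 ± 2.77, Gabra4 at 16.1 ± 0.800, Gabra3 at 16.1 ± 1.16, Gabra2 at 14.9 ± 0.838 and Gabrd at 7.67 ± 0.841 RPKM (SD, n = 4 each). Gabra5 and Gabrd stood apart from their neighbours in this order, as the ranges over the 8 libraries, 63.8 to 71.7 RPKM and 6.00 to 9.38 RPKM, did not overlap those of any other member. Among the remaining 5, the ranges of genes next to each other in the order overlapped, although on this length Gabra3 was above Gabra2 in 8 of 8 libraries. Gabrb2 was at 20.4 to 22.3 RPKM in 7 libraries, above every value of Gabra4, Gabra3 and Gabra2 (highest 17.7, 18.2 and 16.0 RPKM), and overlapped these genes through WT replicate 4 alone, at 10.9 RPKM. With the longest transcript in place of all annotated exons, Gabra5 stayed first at 75.3 RPKM and Gabrd last, while Gabrb2 was at 29.6 and Gabrb1 took the fifth place in place of the third, at 17.6 RPKM. On that length Gabra4 (22.6 to 26.1 RPKM) lay wholly above Gabra2 (18.2 to 20.9 RPKM) and Gabra3 (16.1 to 19.5 RPKM). The WT mean of Gabra2 (19.4 RPKM) was then above that of Gabra3 (17.2 RPKM), with overlapping ranges. Their order thus depends on the length used. Of the summed RPKM of the 4 alpha subunit genes, Gabra5 made up 59.0% ± 0.821 in the WT and 57.3% ± 1.70 in the T29-1 Cre libraries (SD, n = 4 each). The share of Gabra3 was 14.0% ± 0.610 in the WT and 15.5% ± 0.725 in the T29-1 Cre libraries (SD, n = 4 each).

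**Figure D3:**
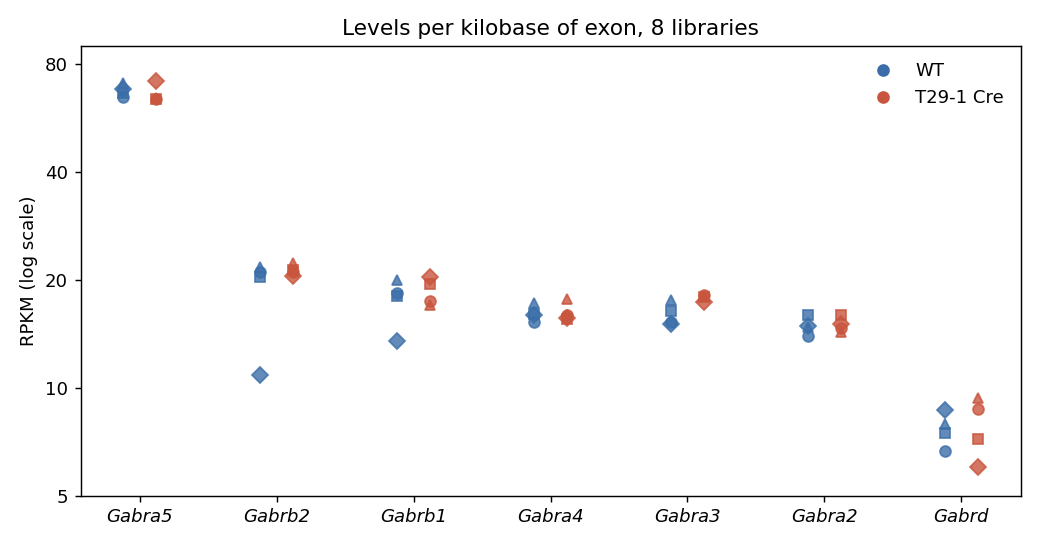
RPKM (log axis) of each subunit gene in each library, WT in blue and T29-1 Cre in red, ordered by the WT mean. Gabra5 lies at 63.8 to 71.7 RPKM, above all others, and Gabrd at 6.00 to 9.38 RPKM, below all others.

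The spread of Gabrb2 and Gabrb1 between WT libraries was that of 1 library, WT replicate 4. The SD of log2 CPM over the WT libraries was 0.479 for Gabrb2 and 0.246 for Gabrb1, against 0.0585 to 0.103 for the 4 alpha genes and a median of 0.102 over the 11502 genes averaging 5 CPM or more. Of those genes 0.391% had a larger WT spread than Gabrb2. Without WT replicate 4 the SD was 0.0474 for Gabrb2 and 0.0774 for Gabrb1, against 0.0704 to 0.0998 for the alpha genes. In T29-1 Cre the SD of Gabrb2 was 0.0508, below the median of 0.0710, and of the 7 genes Gabrd had the largest spread, at 0.289, which 1.19% of genes exceeded. Without T29-1 Cre replicate 4 the SD of Gabrd was 0.199.

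WT replicate 4 was compared with the other WT libraries in more detail because it moved the beta subunit values. Relative to the mean of WT replicates 1 to 3 on the log2 scale, Gabrb2 was at -0.96 (0.516-fold), Gabrb1 at -0.48 (0.719-fold), Gabra3 at -0.13, Gabra4 at -0.02, Gabra2 at 0.01, Gabra5 at 0.02 and Gabrd at 0.24. In all, 0.307% of 11066 genes with an annotation lay lower than Gabrb2 in this library. Across these genes, which are not independent replicates, the deviation of WT replicate 4 had a Spearman correlation of -0.630 with the length of the longest transcript and 0.445 with its GC content. The longest annotated transcript was 13737 bases for Gabrb1 at 40.9% GC, 3989 bases for Gabrb2 at 44.0% GC and 4108 bases for Gabra4 at 42.2% GC. Gabra4 and Gabra3 (3662 bases, 43.1% GC) are close to Gabrb2 in both properties. In this library they were at -0.02 and -0.13, against -0.96 for Gabrb2. Of 1335 genes at least as long and at most as GC-rich as Gabrb2, the median deviation was -0.20, and 15 (1.12%) were as low as Gabrb2. For Gabrb1 only 10 genes met the same rule, with a median deviation of -0.20, and 4 were as low as Gabrb1.

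With each library's trend on GC content and length removed, the deviation of Gabrb1 in WT replicate 4 was -0.01 and that of Gabrb2 -0.85 (0.556-fold), and 29 other genes of 11066 were as low as Gabrb2. Gabra2, long and GC-poor, was then at 0.25 and Gabrd at 0.12. The cause of the low beta subunit values in WT replicate 4 was not tested.

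**Figure D4:**
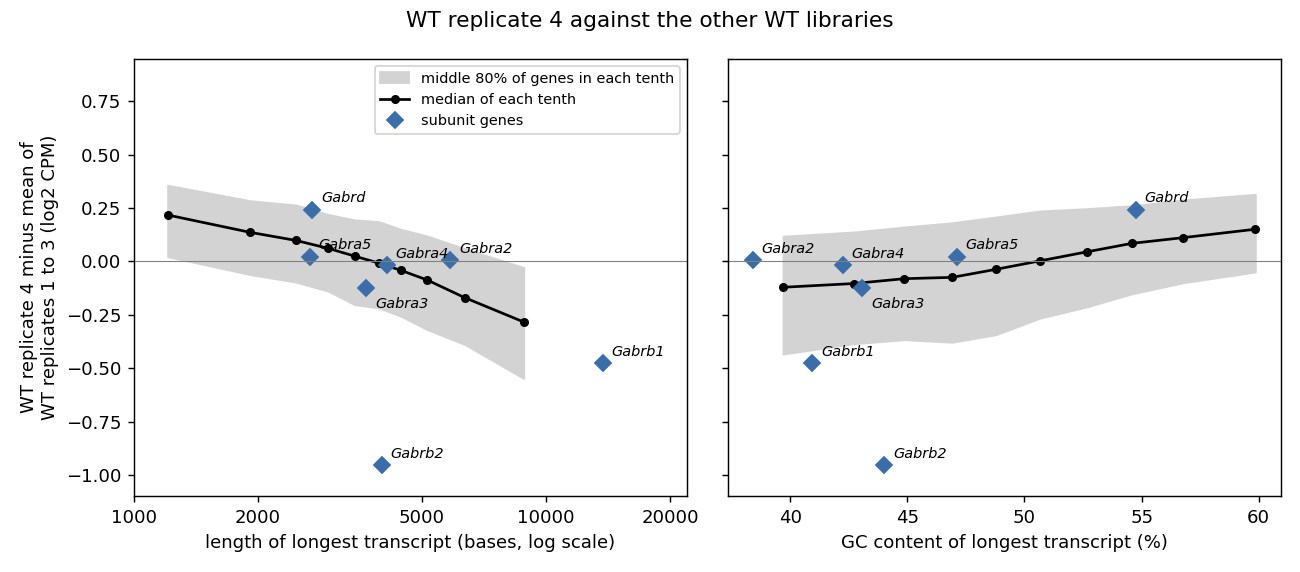
Log2 CPM of WT replicate 4 minus the mean of WT replicates 1 to 3, against the length (left, log axis) and the GC content (right) of the longest transcript. The black line gives the median and the grey band the middle 80% of genes in each of 10 bins of 11066 genes. Gabrb2 at -0.96 lies far under the band, and Gabrb1 at -0.48 lies beyond the median length of the last bin, 8834 bases.

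The Gabrd values were set beside markers of the regions in which it is or is not abundant. The summed level of the 10 dentate granule cell markers was 831, 878, 854 and 825 CPM in WT and 811, 816, 937 and 725 CPM in T29-1 Cre. T29-1 Cre replicate 3 was thus the highest and T29-1 Cre replicate 4 the lowest library, as for Gabrd. For the 9 CA2 and CA3 markers the sums were 607, 531, 562 and 576 CPM in WT and 505, 573, 495 and 676 CPM in T29-1 Cre, with the same 2 libraries at the ends in the opposite order. The 9 markers of neocortex and subiculum were at 355, 363, 350 and 342 CPM in WT and 437, 385, 415 and 301 CPM in T29-1 Cre, again lowest in replicate 4. The 8 CA1 markers summed to 908, 944, 932 and 973 CPM in WT and to 994, 941, 984 and 843 CPM in T29-1 Cre. Within T29-1 Cre they were thus high in replicates 1 and 3 and lowest in replicate 4, as Gabrd was. T29-1 Cre replicate 1 was high for Gabrd and low for the granule cell markers, so the order of the libraries was not the same throughout. The part of these regional differences in the Gabrd values was not tested.

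**Figure D5:**
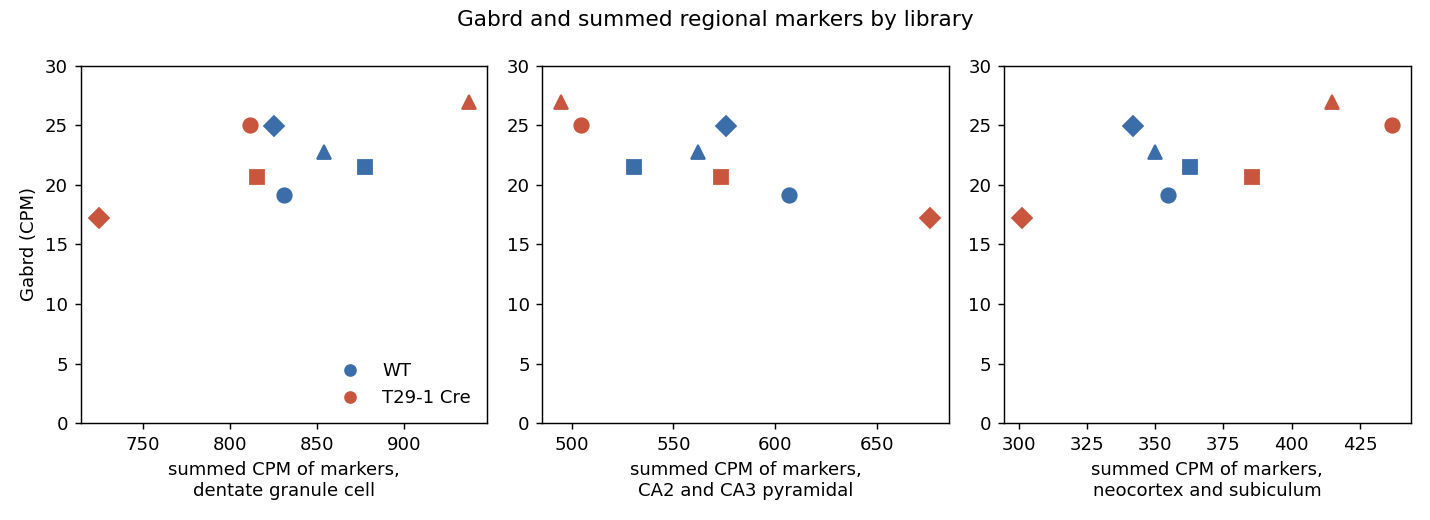
Gabrd (CPM) in each library against the summed CPM of markers of dentate granule cells, of CA2 and CA3 pyramidal cells, and of neocortex and subiculum, WT in blue and T29-1 Cre in red, symbols by replicate number (circle 1, square 2, triangle 3, diamond 4). T29-1 Cre replicate 4 has the lowest Gabrd (17.2 CPM), the lowest granule cell sum (725 CPM) and the highest CA2 and CA3 sum (676 CPM).

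Within the family, pairs were compared by the root mean square difference of their log2 deviations from their own means over the 8 libraries. It was smallest for Gabra4 and Gabra5, at 0.0866. The pair that differed most was Gabrb2 and Gabrd, at 0.419. The measure is small between genes that hardly varied. The root mean square of the deviations was 0.0675 for Gabra4 and 0.0635 for Gabra5, against 0.321 for Gabrb2 and 0.202 for Gabrd. The order of the pairs therefore does not show which genes moved together. Gabra4 and Gabrb1, which share a start region, differed by 0.192, and Gabra4 and Gabrd, which share receptors, by 0.166. Among the 11501 other genes averaging 5 CPM or more, the nearest to Gabrb2 by this measure were Kctd16, an auxiliary subunit of GABA-B receptors (0.0420), and Ston2, an endocytic adaptor (0.0600). Kctd16 was at 16.4, 15.1, 17.0 and 8.11 CPM in WT and at 14.5 to 16.8 CPM in T29-1 Cre. It was chosen for nearness to Gabrb2, so its low value in WT replicate 4 follows from that choice. In all, 26 genes lay within 0.1 of Gabrb2.

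The nearest to Gabrd were Chil1 (0.0804) and Arhgef10l (0.0816), and 13 genes lay within 0.1. The nearest to Gabrb1 were Lsamp, a neuronal cell adhesion protein (0.0282), and Clmn (0.0308). Those of Gabra3 were Pik3r1 (0.0282) and Usp53 (0.0299), those of Gabra4 Pkia (0.0185) and Dync1i2 (0.0303), those of Gabra5 Ublcp1 (0.0242) and Fgf13 (0.0255), and those of Gabra2 Ankrd6 (0.0205) and Abca7 (0.0210). For Gabra2, Gabra4 and Gabra5, which hardly varied, 4610, 4136 and 4850 genes lay within 0.1, so that these names single out little. The same holds less strongly for Gabra3 and Gabrb1, with 2171 and 682 genes within 0.1.

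Of the 12 other rows named as GABA-A subunits, 6 passed the filter, and edgeR called 0 of them with 0 at an unadjusted p under 0.05. The value was higher in T29-1 Cre for 5 and lower for 1, with a median log2 fold change of 0.07, where 49.7% of all tested genes were higher. The summed level of these genes was lowest in WT replicate 4, at 824 CPM. The gamma subunit genes Gabrg1 and Gabrg3, whose products link receptors to synapses and to benzodiazepine binding, were at 20.2 ± 0.932 and 24.9 ± 3.64 CPM in WT (SD, n = 4 each), with log2 fold changes of 0.07 (SE 0.0588) and 0.08 (SE 0.0912). Gabrq was close to 1 CPM, at 0.967 ± 0.199 in WT (SD, n = 4), with a log2 fold change of 0.17 (SE 0.227). Among the untested rows, Gabra6, the alpha subunit of cerebellar granule cells, had 0 to 1 reads per library and Gabrp 0 in every library. Gabre had 2 to 10 reads per library.

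Genes that anchor the receptor, handle its transmitter or set the chloride gradient did not pass the test either. EdgeR called 0 of 29 genes for anchoring and trafficking, 0 of 10 for GABA synthesis, transport and breakdown, 0 of 9 for GABA-B receptors and their partners, 0 of 14 for chloride transport and 0 of 7 tested for neurosteroid synthesis. None of these lists held a gene at an unadjusted p under 0.05. Of all genes, 0.00625% were called and 2.43% were at that level. The lists' median log2 fold changes were 0.02, 0.04, 0.04, 0.02 and -0.11, and the numbers with a higher value in T29-1 Cre were 18, 9, 8, 10 and 1. Over all tested genes 49.7% were higher. WT replicate 4 had the lowest summed level of the 8 libraries for GABA handling (2935 CPM), GABA-B receptors (1752 CPM) and chloride transport (2074 CPM). It was not the lowest for anchoring, and it was the highest for neurosteroid synthesis (52.6 CPM). Its part in these numbers was not tested.

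The genes of smallest p in each list are given as values. For anchoring they were Ppp3ca, a catalytic subunit of calcineurin, at -0.07 (SE 0.0476) and Iqsec3, a partner of gephyrin, at 0.09 (SE 0.0708). For GABA handling they were the glutamine transporter gene Slc38a1 at 0.11 (SE 0.0720) and Gad2, a GABA-synthesising enzyme, at 0.11 (SE 0.0781). For GABA-B receptors they were the auxiliary subunit genes Kctd8 at 0.10 (SE 0.101) and Kctd16 at 0.14 (SE 0.165). Kctd16 was lowest in WT replicate 4, at 8.11 CPM. For chloride transport they were Slc4a10, a bicarbonate transporter gene, at 0.07 (SE 0.0513) and Slc12a7, a potassium-chloride cotransporter gene, at -0.17 (SE 0.132). For neurosteroid synthesis they were Star, which carries cholesterol into mitochondria, at -0.39 (SE 0.225) from a level of 1.47 ± 0.296 CPM in WT (SD, n = 4), and Srd5a3, of the steroid 5-alpha-reductase family, at -0.11 (SE 0.0752).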

How the data were processed

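Per the labels' protocols, total RNA was extracted with Isogen II, poly(A) RNA was selected from 500 ng, and directional libraries were sequenced in 1 lane as paired 150-base reads. The tools named in the submitters' processing notes are STAR 2.6.1d, featureCounts and edgeR 3.11, and the build is GRCm38. For the counting, neither annotation release nor strand setting is stated in those sources. Raw read counts per gene name were deposited for the 8 libraries. The authors also deposited a comparison table with log2 values (fold change and mean CPM), mean CPM, unadjusted p-values and a signed linear fold change, treated here as a score and not used.

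The counts were tested with edgeR 4.0.16 (R 4.3.3) after filtering by filterByExpr (minimum count 10, minimum total 15) and TMM scaling, by the quasi-likelihood F test over all 15996 genes with Benjamini-Hochberg adjustment. SEs are the size of the log2 fold change over the square root of F. CPM uses TMM-scaled library sizes, and log2 CPM a prior count of 2. RPKM divides CPM by exon length from GENCODE M21 (GRCm38), which matched all 7 genes. DESeq2 1.42.0, limma 3.58.1 (voom), other scalings, filters, a replicate block and left-out libraries were alternatives. GC and length offsets (lowess span 0.3) and spreads with 1 library left out were added after seeing the data. Named genes were the 7 members, other tested subunit genes, the 2 smallest p of each pathway list and the 2 genes nearest to each member. Of the other tested subunit genes, 3 are counted but not reported here by name. The members and lists were chosen with earlier results of these data known. Nothing in the labels makes the replicates separate animals, and every p-value therefore reflects only library-to-library spread, possibly technical. Libraries of a group differed beyond sampling error (chi-square divided by its degrees of freedom, 3.32 or more). The fit was tested on simulated data.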

Additional observations from a re-analysis of the deposited data

Results flagged for a closer look

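In 14 groups of 4 libraries (7 genes in 2 genotypes), 3 held a library far from the other 3, and chance would flag about 1 in 20. Gabrb2 in WT replicate 4 was at 6.11 log2 CPM, against 7.02 to 7.11 in the other WT libraries. Gabra5 in T29-1 Cre replicate 4 was at 7.74 log2 CPM, against 7.57 to 7.58 in the other T29-1 Cre libraries. Gabra4 in T29-1 Cre replicate 3 was at 6.75 log2 CPM, against 6.57 to 6.60 in the others. T29-1 Cre replicates 3 and 4 were also the ends of the Gabrd values, and WT replicate 4 stood apart on the first principal component. These links were not tested.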

How the results depend on the processing

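No subunit gene was called under any of 17 alternatives, 16 of them planned (smallest adjusted p 0.892). Of 119 values over these alternatives, 109 kept their direction and 10 reversed, all within 0.0712 of 0. With GC and length offsets, Gabra2 was at -0.043 and Gabra4 at -0.018. With each library left out in turn, Gabra2 ran from -0.018 to 0.049, Gabra4 from -0.036 to 0.040, Gabra5 from -0.077 (without T29-1 Cre replicate 4) to -0.011 (without WT replicate 3), Gabra3 from 0.119 to 0.196, Gabrb1 from -0.012 to 0.163, Gabrb2 from 0.013 to 0.285 and Gabrd from -0.071 to 0.139. In 15 alternatives 1 gene of the whole table was called. Dropping the filter gave 2 called genes, and the replicate number as a block also 2, and the cause was not tested. The replicate block called 0 of the 7 subunit genes, with Gabra3 at 0.15 and Gabrb2 at 0.24. Libraries of the same number had correlations of -0.141, 0.126, 0.01 and -0.0175 between their deviations. These values cannot show whether libraries of the same number share a preparation or batch. With the longest transcript as the length, WT levels were 75.3 RPKM for Gabra5, 29.6 for Gabrb2, 23.9 for Gabra4 and 19.4 for Gabra2. Depth was lowest for Gabrd, with 460 to 747 reads per library and a 95% interval of the fold change of 0.853 to 1.22.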
